A study of Mus musculus with 15 samples.

Results

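A set of 34 mouse genes that are textbook targets of the transcription factor Myc, most of them nucleolar factors of ribosome assembly, was followed through 15 RNA-seq libraries. The members were given by name, matched by Ensembl identifier to 34 of the 43432 identifiers in the count tables, and read in every library. Each library is polyadenylated RNA of a separate cell line of CD1 background, obtained by reprogramming mouse embryonic fibroblasts (MEFs) to induced extraembryonic endoderm stem (iXEN) cells, a culture counterpart of the primitive endoderm that lines the yolk sac. The 5 retroviral OSKM lines received Oct4, Sox2, Klf4 and Myc by retrovirus and were each grown as a clone from a single cell with an active Oct4-EGFP reporter. The 5 lentiviral SKM lines received Sox2, Klf4 and Myc, without Oct4, by lentivirus. The 5 lentiviral OSKM lines received all 4 factors by lentivirus. The lentiviral lines were stable lines beyond passage 11 from separate MEF preparations, whereas no passage is given for the retroviral lines. Some sample fields of the lentiviral lines name a pluripotent state, although the study's design text calls every line iXEN. All 15 lines therefore received Myc, and the gene count of Myc can hold transgene reads, which cannot be told apart in it from those of the endogenous gene.

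Myc binds with its partner Max to E-box sequences, and genes for ribosome production are among its best known targets. Ribosomes are built in the nucleolus: RNA polymerase I transcribes the precursor ribosomal RNA, small nucleolar ribonucleoproteins (snoRNPs) guide its chemical modification and cleavage, and assembly factors fold it into the small and the large subunit. Polyamine and pyrimidine synthesis, also known to respond to Myc, supply the building blocks of growing cells.

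Libraries held 34916933 to 46995817 counts in genes for retroviral OSKM, 60998360 to 75376275 for lentiviral SKM and 64348250 to 73405134 for lentiviral OSKM. The lowest count of any member in any library was 911, for Polr1b, so counting error is small beside the spread between lines. Of 12 XEN markers, 9 were at 10 CPM or more in every line (CPM, counts scaled to a common library total) and Gata5 was below 1 CPM in all, and of 10 pluripotency markers none reached 10 CPM in every line, with Esrrb, Fgf4 and Tdgf1 below 1 CPM throughout. The 12 XEN markers summed to 1840 CPM in retroviral line 3 and to 3148 to 5051 CPM in the other 14 lines, and Foxa2, an endoderm transcription factor, had 2.56 CPM in that line and 120 to 195 CPM elsewhere. The summed CPM of 10 fibroblast markers was 69.3 to 531 in retroviral OSKM, 98.7 to 458 in lentiviral SKM and 117 to 839 in lentiviral OSKM lines, and was highest in retroviral line 1, lentiviral SKM line 1 and lentiviral OSKM line 5 of their groups. Results are therefore also given without these 4 lines, an alternative added after the data were seen. These are bulk samples, so fewer cells of a type and less RNA per cell cannot be told apart. Vector, cloning by reporter and count table all go with the retroviral group and cannot be told apart either.

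Myc itself varied widely between lines. Its level was 251, 209.5, 154, 72.5 and 157 CPM in retroviral OSKM lines 1 to 5, against 56.8, 65.7, 80.6, 109.6 and 98.1 CPM in lentiviral SKM lines and 96.4, 106.0, 39.3, 79.1 and 54.7 CPM in lentiviral OSKM lines. Retroviral lines 1, 2, 3 and 5 lay above every lentiviral line, and retroviral line 4 lay among the lentiviral ones. The log2 difference was 1.20 ± 0.35 (SE, n = 5 each; adjusted p = 0.178 in edgeR's quasi-likelihood test, adjusted by Benjamini-Hochberg over all genes tested) for retroviral OSKM against lentiviral OSKM. Against lentiviral SKM it was 1.07 ± 0.31 (edgeR adjusted p = 0.170), and between lentiviral SKM and lentiviral OSKM it was 0.13 ± 0.28 (edgeR adjusted p = 0.993), so none passed at 0.05. Mycn, the N-Myc paralogue that binds the same E-boxes, was above Myc in 14 of the 15 lines: it had 46.3, 209.7, 229.8, 115 and 198 CPM in retroviral OSKM, 208, 151, 184, 135 and 126 CPM in lentiviral SKM, and 181, 157, 128, 313 and 136 CPM in lentiviral OSKM lines. The exception was retroviral line 1, which had the highest Myc and the lowest Mycn of all lines. In retroviral line 2 Mycn and Myc were nearly equal, at 209.7 and 209.5 CPM. These CPM are not scaled by gene length. Of the partners, Max had 64.9 to 131 CPM over the 15 lines. Of 14 genes of the Myc network 13 were tested between groups and none passed. After Myc itself, Mlxip, which pairs with Mlx in nutrient sensing, had the smallest p among them for retroviral OSKM against lentiviral OSKM, at a log2 difference of -0.60 ± 0.19 (edgeR adjusted p = 0.203).

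The members span a wide range of levels. Per kilobase of coding sequence, over all 15 lines, Npm1 averaged 1576 CPM, Ncl 607 CPM, Odc1 599 CPM and Cdk4 370 CPM. Npm1 encodes nucleophosmin, a chaperone of the outer, granular nucleolus, and Ncl encodes nucleolin, which acts in rRNA transcription and processing. At the other end stood Polr1b with 11.3, Rrp12 with 10.7, Utp20 with 10.1 and Heatr1 with 8.75 CPM per coding kilobase. Across lines the steadiest member was Pes1, a large-subunit factor, and the most variable was Npm1, whose highest CPM was 6.40 times its lowest. The summed CPM of the 34 members was 7558 to 10290 in retroviral OSKM lines, against 5502 to 7521 in lentiviral SKM lines and 5716 to 7313 in lentiviral OSKM lines, with every retroviral line above every lentiviral one. Npm1, Ncl and Odc1 hold much of that sum. With each member weighted alike, the mean of log2(CPM + 0.5) over members was 7.07 ± 0.15 in retroviral OSKM, 6.75 ± 0.16 in lentiviral SKM and 6.82 ± 0.18 in lentiviral OSKM lines (SD, n = 5 each). On that scale retroviral line 4, at 6.82, lay within the lentiviral lines, which ran up to 6.97 in SKM and 7.04 in OSKM. No test is given for such a mean, because the members were chosen with results of these data known.

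**Figure D1:**
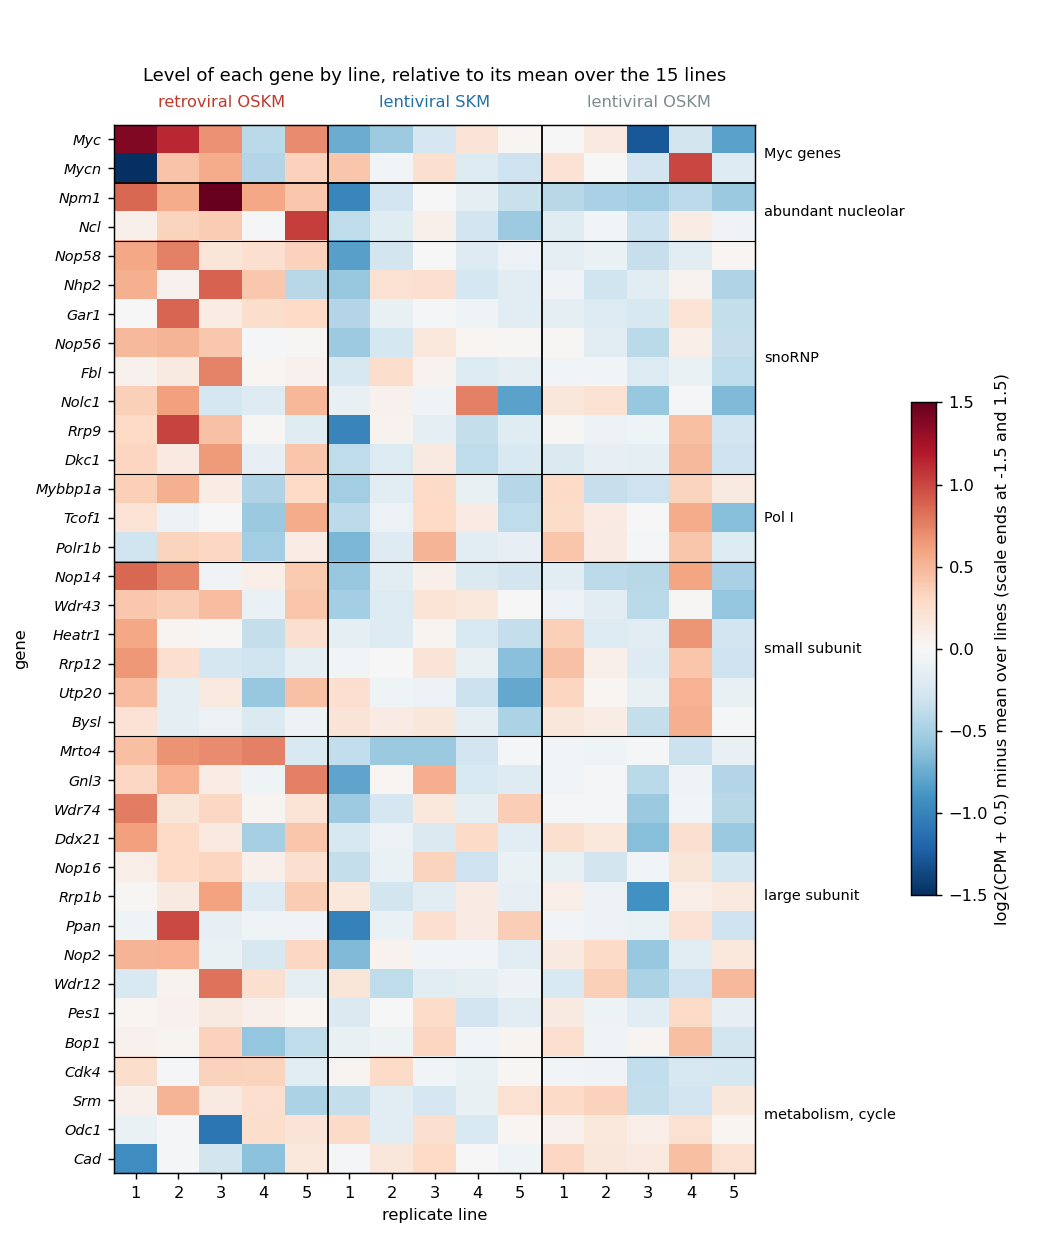
Level of Myc, Mycn and the 34 members (rows, by role) in each of the 15 lines (columns, 5 per group), as log2(CPM + 0.5) minus the gene's mean over lines (red above and blue below that mean). Npm1 is above its mean in all 5 retroviral lines, while several other members, among them Cad, Odc1, Bysl, Bop1 and Polr1b, do not follow that pattern.

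Retroviral OSKM lines were set against lentiviral OSKM lines, which received the same factors by another vector. No member passed: edgeR called 0 of 34 at an adjusted p of 0.05, where 39 of 15483 genes tested, 0.252%, were called. The fitted difference was above 0 for 27 members and below 0 for 7, with a median log2 difference of 0.33, against a median of 0.03 and 52.3% above 0 over all genes tested. At an unadjusted p under 0.05 there were 14 members above 0 and 1 below, where 14.5% of all genes were, 7.56% above and 6.89% below. DESeq2 called 3 members, Npm1, Nop58 and Wdr43, among 623 genes called in all. With limma voom Npm1 alone was called, among 63 genes called in all. All 8 snoRNP proteins and both abundant nucleolar proteins were fitted above 0, as were 10 of 11 large-subunit factors, 4 of 6 small-subunit factors, 1 of 3 polymerase I factors and 2 of 4 metabolic and cell cycle genes. Marker lists also differed: of 10 fibroblast markers 6 were tested and all were fitted below 0 (median -1.33). Of 10 pluripotency markers 6 were tested and 4 were above 0 (median 2.49), but Pou5f1 and Sox2 among them are delivered factors whose counts can hold transgene reads. These 2 genes summed to 138 CPM in retroviral line 1, 0.671 to 22.0 CPM in the other retroviral lines and 0.0989 to 1.62 CPM in lentiviral OSKM lines, whereas the other 8 summed to 0.324 to 14.5 CPM in retroviral OSKM and 2.07 to 8.38 CPM in lentiviral OSKM lines. None of these markers passed, and their part in the members' values was not tested. Without retroviral lines 1 and 3 and lentiviral OSKM line 5, 26 members were above 0 with a median of 0.22, against 0.02 over all genes, and edgeR called 0 members.

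Npm1 stood apart most. It had 2213, 1798, 3949, 1825 and 1619 CPM in retroviral OSKM lines, against 912, 868, 848, 927 and 832 CPM in lentiviral OSKM lines. The groups did not overlap, and retroviral line 3 was far above the other 4. The log2 difference was 1.41 ± 0.26 (SE, n = 5 each; edgeR adjusted p = 0.0564), and over 18 alternative fits it ran between 0.98 and 1.48 with adjusted p between 2.37e-05 and 0.310. Leaving out retroviral line 3 gave 1.11 with an adjusted p of 0.0392, and leaving out retroviral line 5 gave 1.48 with an adjusted p of 0.0378 (edgeR), so the call at 0.05 depends on which line is in the fit. Retroviral line 3 is also the line with the lowest XEN marker sum. Processed pseudogenes at least 95% identical to Npm1 over 300 bases or more, Gm5611 and Gm14681, took 2.90% to 6.07% of the summed CPM. Npm1 with these copies had 1667 to 4099 CPM in retroviral OSKM and 885 to 982 CPM in lentiviral OSKM lines.

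The next smallest p-values belonged to 3 members with smaller differences. Nop58, a core protein of box C/D snoRNPs, had 347, 394, 264, 274 and 294 CPM in retroviral OSKM lines, against 209.6, 217, 182, 208 and 237 CPM in lentiviral OSKM lines, a log2 difference of 0.60 ± 0.16 (edgeR adjusted p = 0.144, DESeq2 0.0129). Its groups did not overlap. Wdr43, a subunit of the small-subunit processome that also acts in rRNA transcription, had 182, 178, 189.5, 128 and 184 CPM in retroviral OSKM lines, against 129, 123, 103, 139 and 92.0 CPM in lentiviral OSKM lines, a log2 difference of 0.58 ± 0.17 (edgeR adjusted p = 0.171, DESeq2 0.0430). Retroviral line 4 fell inside the lentiviral range and the other 4 lay above it. Mrto4, an assembly factor of the large subunit related to its stalk protein, had 57.8, 67.9, 69.6, 71.5 and 35.9 CPM in retroviral OSKM lines, against 41.1, 40.3, 41.6, 33.6 and 38.9 CPM in lentiviral OSKM lines, a log2 difference of 0.65 ± 0.19 (edgeR adjusted p = 0.181). Here it was retroviral line 5 that lay with the lentiviral lines, and without that line the difference was 0.77 with an edgeR adjusted p of 0.0378.

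Besides Npm1 and Nop58, 2 other members did not overlap between the groups, and all 4 were higher in retroviral OSKM; over all genes tested, 1.79% were higher and 2.25% lower without overlap. Fbl, the methyltransferase of box C/D snoRNPs, had 159.9, 168, 256, 155 and 159.6 CPM in retroviral OSKM lines, against 148, 148, 132, 143 and 117 CPM in lentiviral OSKM lines, and retroviral line 3 was far above the rest. Wdr74, which acts in the release of large-subunit precursors, had 108, 71.3, 78.3, 64.7 and 72.5 CPM in retroviral OSKM lines, against 62.2, 61.7, 42.7, 61.4 and 47.2 CPM in lentiviral OSKM lines. The log2 differences of Fbl and Wdr74 were 0.41 ± 0.17 and 0.55 ± 0.18 (edgeR adjusted p = 0.307 and 0.220).

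The polymerase I factors and several small-subunit factors lay near 0. Polr1b, a catalytic-core subunit of RNA polymerase I, differed by -0.12 ± 0.21, Tcof1, the treacle protein of polymerase I transcription, by -0.02 ± 0.25, and Mybbp1a, a nucleolar regulator of rRNA synthesis, by 0.18 ± 0.22 on the log2 scale. Utp20, Heatr1 and Rrp12, large scaffold proteins of small-subunit precursors, differed by -0.01 ± 0.22, 0.04 ± 0.24 and 0.00 ± 0.24. Bysl, which acts late in small-subunit maturation, and Bop1, a partner of Pes1 and Wdr12 in the PeBoW complex, were fitted at -0.15 ± 0.18 and -0.14 ± 0.21. The 95% intervals of the members reached a median of 0.47 log2 units to either side, so differences of that size were not resolved for most of them.

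Cad, which encodes the enzyme of the opening steps of pyrimidine synthesis, was the member fitted furthest below 0. It had 86.3, 161, 135, 107 and 184 CPM in retroviral OSKM lines, against 203, 185, 182, 225 and 192 CPM in lentiviral OSKM lines, and retroviral line 5 lay within the lentiviral range. The log2 difference was -0.53 ± 0.20 (edgeR adjusted p = 0.262). Odc1, the rate-limiting enzyme of polyamine synthesis, had 381 CPM in retroviral line 3 and 754 to 970.1 CPM in the other 4, against 829 to 948 CPM in lentiviral OSKM lines. Cdk4, the cyclin D kinase, was fitted at 0.38 ± 0.15 (edgeR adjusted p = 0.296), but 19.7% of its exon bases overlap Tspan31 on the other strand, and how strand was treated in counting is not known.

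**Figure D2:**
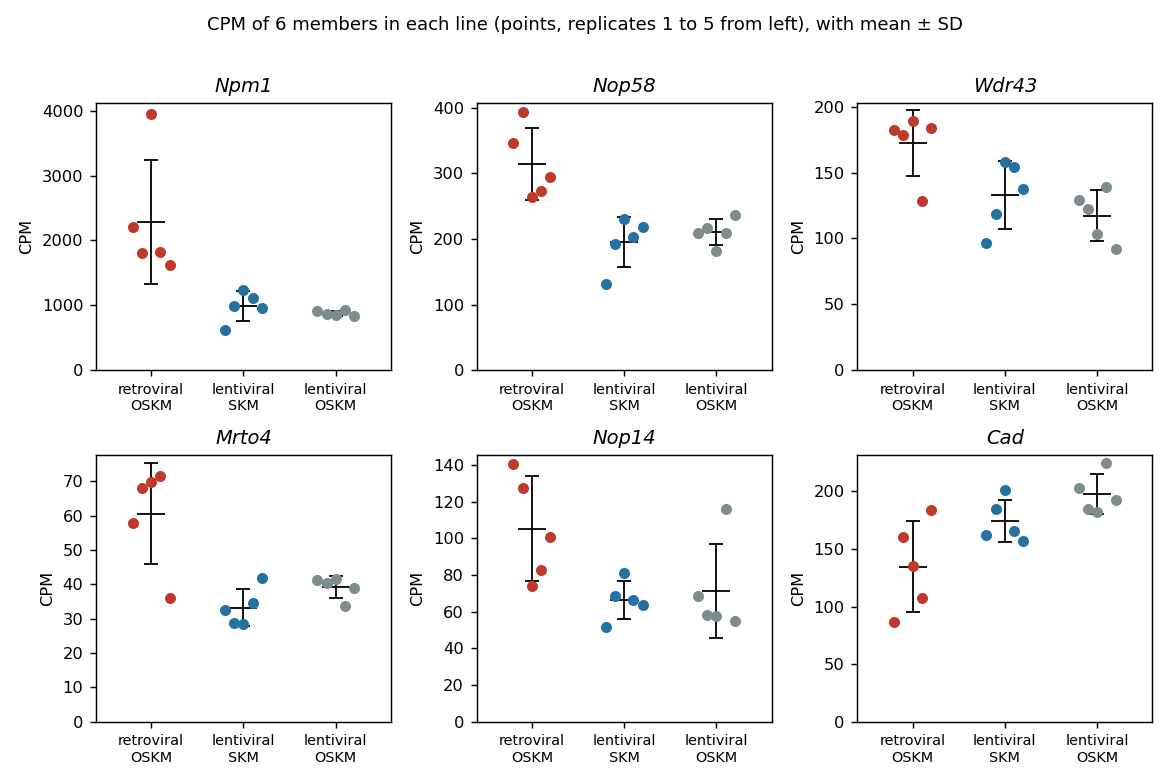
CPM of 6 members in each line (points, replicates 1 to 5 from left to right in each group) with group mean ± SD (horizontal mark and bars, n = 5). Npm1 and Nop58 do not overlap between retroviral OSKM and either lentiviral group, single retroviral lines lie low in Wdr43 (line 4) and Mrto4 (line 5), and Cad is lower on average in retroviral OSKM lines.

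Against the lentiviral SKM lines, from which the retroviral lines differ in vector and in Oct4 at once, 30 members were fitted above 0 and 4 below, with a median log2 difference of 0.34 against 0.05 over all genes tested, of which 54% were above 0. The retroviral libraries are the same as in the comparison above, so the results are not independent. No member passed in edgeR or limma voom, where edgeR called 43 of 15370 genes tested, 0.28%. DESeq2 called 3 members, Mrto4, Npm1 and Nop58, among 748 genes called in all. At an unadjusted p under 0.05 there were 10 members above 0 and 0 below, where 15.4% of all genes were, 8.2% above and 7.16% below. In lentiviral SKM lines Mrto4 had 32.5, 28.6, 28.5, 34.6 and 41.9 CPM, so only retroviral line 5 lay within their range, and the log2 difference was 0.89 ± 0.21 (edgeR adjusted p = 0.102). Without retroviral line 5 it was 1.03, with an edgeR adjusted p of 0.0278. Npm1 there had 617, 996, 1228, 1113 and 964 CPM, with a log2 difference of 1.24 ± 0.29 (edgeR adjusted p = 0.103), and Nop58 had 132, 192, 231, 203 and 218 CPM, with a log2 difference of 0.72 ± 0.19 (edgeR adjusted p = 0.139). Neither overlapped the retroviral lines. Without retroviral lines 1 and 3 and lentiviral SKM line 1, 30 members were above 0, but the median was 0.20 against -0.0013 over all genes, and Npm1 was at 0.69 (edgeR adjusted p = 0.202, over all alternatives 0.00326 to 0.268).

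Nop14, a small-subunit processome factor, had 141, 128, 74.1, 83.0 and 101 CPM in retroviral OSKM lines, against 51.9, 68.5, 81.4, 66.3 and 63.9 CPM in lentiviral SKM lines. Retroviral line 3 lay below the highest SKM line, and the log2 difference was 0.70 ± 0.20 (edgeR adjusted p = 0.170). Gar1, a protein of box H/ACA snoRNPs, which guide pseudouridylation, was the third member without overlap, all 3 being higher in retroviral OSKM, where 1.82% of all genes were. It had 49.9, 91.8, 54.3, 60.0 and 61.6 CPM in retroviral OSKM lines, against 36.7, 46.5, 49.0, 47.7 and 45.0 CPM in lentiviral SKM lines, so the gap between the groups was narrow. The H/ACA proteins Dkc1, the pseudouridine synthase, and Nhp2 were fitted at 0.54 ± 0.17 and 0.47 ± 0.25, and Rrp9, the protein particular to the U3 snoRNP, at 0.69 ± 0.26 (edgeR adjusted p = 0.194, 0.402 and 0.246).

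Lentiviral SKM and lentiviral OSKM lines differ by Oct4 among the delivered factors. No member passed in edgeR, DESeq2 or limma voom; edgeR called 0 of 15899 genes tested, 0%, and 4.86% had an unadjusted p under 0.05 (2.29% above 0 and 2.57% below), among them 0 members. The fitted difference was above 0 for 12 members and below 0 for 22, with a median log2 difference of -0.09 against -0.001 over all genes, of which 49.8% were above 0. Without lentiviral OSKM line 4, 17 members were above 0. All 34 members overlapped between the groups, where 0.717% of genes did not. The smallest p belonged to Cdk4, with 341, 407, 322, 309.8 and 336 CPM in SKM lines, against 323, 320.2, 258, 281 and 278 CPM in OSKM lines, a log2 difference of 0.23 ± 0.12 (edgeR adjusted p = 0.979). Mrto4 was fitted at -0.23 ± 0.14 and Cad at -0.18 ± 0.11. For Cad the values were 162, 184, 201, 165 and 157 CPM in SKM lines, against 203, 185, 182, 225 and 192 CPM in OSKM lines. Utp20 had 97.6, 78.1, 76.4, 65.4 and 47.9 CPM in SKM lines, against 102, 83.1, 75.2, 118 and 75.7 CPM in OSKM lines, a log2 difference of -0.31 ± 0.20. Intervals of the 34 members reached 0.25 to 0.62 log2 units to either side, and they bound how large a difference these data allow rather than showing the groups alike.

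**Figure D3:**
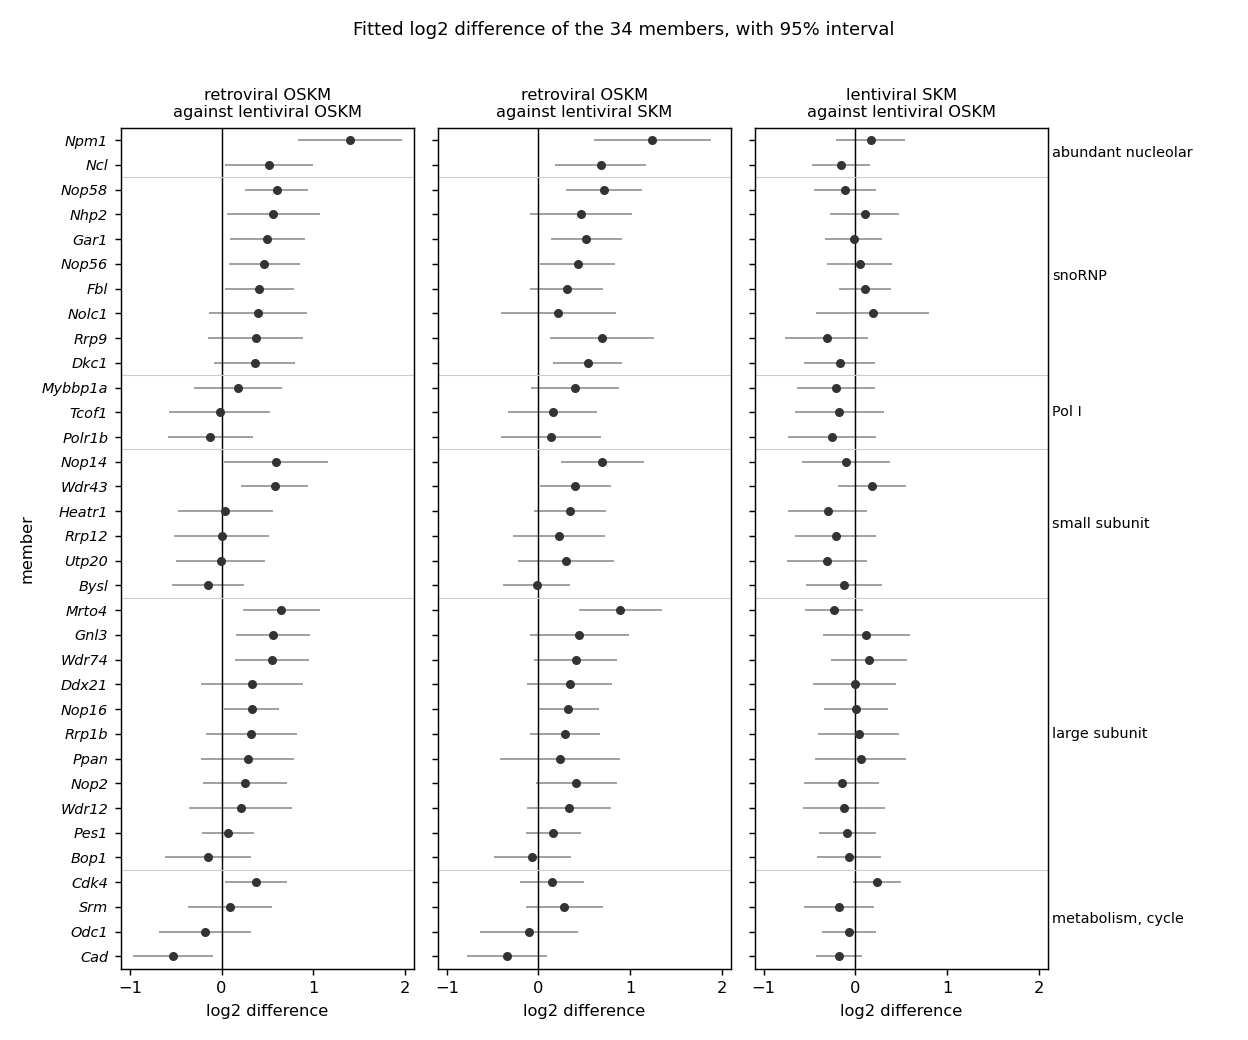
Fitted log2 difference of each member with its 95% interval (edgeR, 5 lines per group) in the 3 comparisons, ordered by role. In both comparisons of retroviral OSKM lines the abundant nucleolar and snoRNP genes are all fitted above 0, and for lentiviral SKM against lentiviral OSKM every interval includes 0.

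The members were next related to each line's own Myc level. In a fit over all 15 lines with a term for each group, the slope, the log2 change per doubling of Myc, was above 0 for 30 members and below 0 for 4. The median slope was 0.25, against -0.01 over the 16686 genes tested, of which 48.4% were above 0. No member passed (edgeR called 0 genes in all, 0%). DESeq2 called 1 member, Ddx21, among 22 genes called in all, and limma voom called none. At an unadjusted p under 0.05 there were 7 members above 0, Ddx21, Nop2, Wdr74, Wdr43, Nop56, Nolc1 and Rrp12, and none below, where 4.13% of all genes were, 2.24% above and 1.89% below. All 8 snoRNP, 6 small-subunit and 3 polymerase I members had slopes above 0, with medians of 0.20, 0.33 and 0.35. Npm1 had a slope of 0.16 ± 0.21 and Ncl of 0.10 ± 0.17. Below 0 were Odc1, Wdr12, Mrto4 and Cdk4, at -0.12 to -0.01.

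Ddx21, a DEAD-box RNA helicase that couples rRNA transcription and processing, had the highest slope, 0.60 ± 0.11 (SE, 15 lines; edgeR unadjusted p = 0.000109, adjusted p = 0.606; DESeq2 adjusted p = 0.000436). It had 316, 254, 228, 145 and 274 CPM in retroviral OSKM lines, 174, 194, 177, 252 and 184 CPM in lentiviral SKM lines, and 243, 230.2, 132, 243 and 139.6 CPM in lentiviral OSKM lines. Its lowest values in the retroviral and in the lentiviral OSKM group stood in lines 4 and 3, which also had the lowest Myc of their groups, and its highest SKM value stood in line 4, the SKM line with the highest Myc. Nop2, an rRNA methyltransferase of the large subunit, followed at 0.43 ± 0.13 (edgeR adjusted p = 0.997). It had 166, 168, 109, 98.3 and 144 CPM in retroviral OSKM, 73.5, 121, 113, 113 and 103 CPM in lentiviral SKM, and 128, 142, 78.4, 105 and 130.4 CPM in lentiviral OSKM lines. In each group the line with the lowest Myc had the lowest Nop2. Wdr74 and Wdr43 had slopes of 0.41 ± 0.12 and 0.35 ± 0.11 (edgeR adjusted p = 0.997 each). In lentiviral SKM lines Wdr74 had 43.0, 52.7, 70.4, 56.8 and 81.5 CPM and Wdr43 had 96.2, 119, 158, 154 and 138 CPM, and both were lowest in line 1, which had the lowest Myc of that group. Over all lines, lentiviral SKM line 1 also held the lowest level of 13 members, for which the share over all genes was not computed. With 458 CPM it had the most fibroblast marker RNA of its group.

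**Figure D4:**
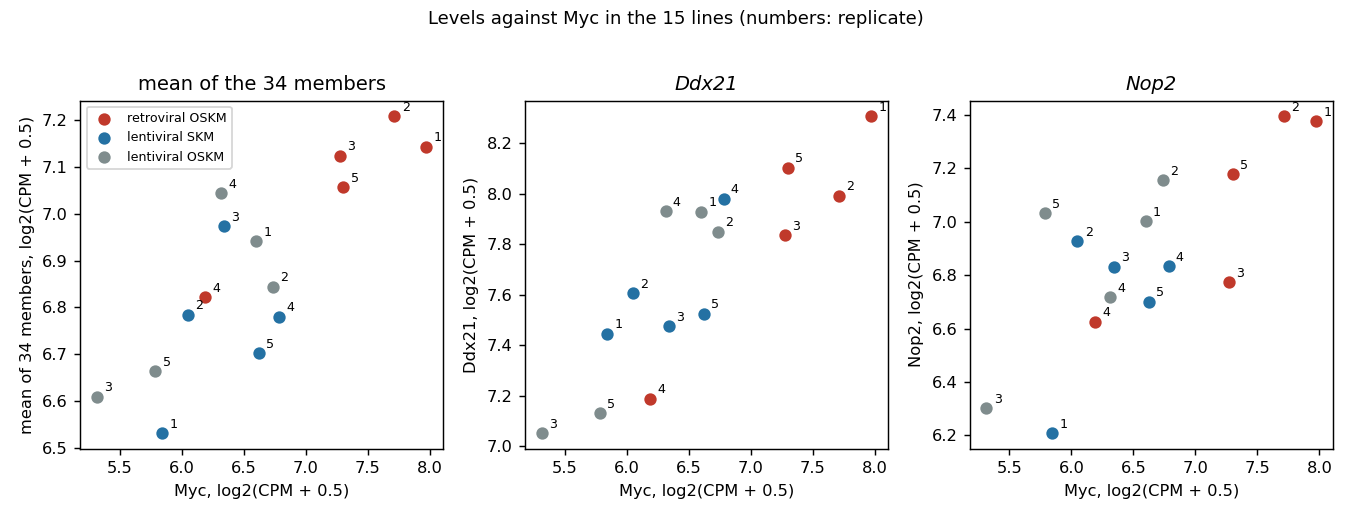
Mean of the 34 members, Ddx21 and Nop2 against Myc in the 15 lines, all as log2(CPM + 0.5), with replicate numbers beside the points. Lines with more Myc tend to lie higher in each panel, and retroviral line 4, the retroviral line with the least Myc, lies among the lentiviral lines.

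Slopes fitted within each vector were also mostly above 0. Among the 10 lentiviral lines 31 members were above 0, with a median of 0.19 against -0.03 over all genes, and among the 5 retroviral lines 28 members were above 0, with a median of 0.28 against 0.01. At an unadjusted p under 0.05 there were 5 members in the lentiviral fit, all above 0, where 5.81% of genes were (2.6% above and 3.21% below), and 1 member above 0 in the retroviral fit, where 1.54% were (0.928% above and 0.608% below); over all genes 46.3% and 52.3% of the slopes were above 0. The difference between the retroviral and the lentiviral slope, tested as an interaction, was above 0 for 16 members and below 0 for 18, against 55.8% above 0 over all genes. There edgeR called 0 members, where 0.00599% of genes were called, and 0 members had an unadjusted p under 0.05, where 4.31% of genes had (3.1% above 0 and 1.22% below). The smallest p there belonged to Utp20 at 0.57 ± 0.36, Srm, the spermidine synthase, at -0.36 ± 0.29, Mybbp1a at 0.39 ± 0.32 and Rrp12 at 0.31 ± 0.32. Over the lines, the mean level of the members had a Pearson r of 0.830 and a Spearman rho of 0.789 with Myc (n = 15). Without retroviral line 1 and lentiviral OSKM line 3, the lines farthest from the median Myc, r was 0.781, and after centring each group on its mean r was 0.730 and rho 0.596. Within the 10 lentiviral lines r was 0.568 and rho 0.455. These correlations are descriptions without a test, and all values of a line share 1 library. From the lowest to the highest Myc line of a group, 26 members were higher in retroviral line 1 than in line 4, 24 in lentiviral SKM line 4 than in line 1, and 27 in lentiviral OSKM line 2 than in line 3. Each of these counts compares single libraries, and the share over all genes was not computed, so they are descriptions only.

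Lines 1 to 5 had the following values for these members. Mybbp1a had 444, 500.2, 372, 252 and 426 CPM in retroviral OSKM, 239.6, 307, 420.3, 319 and 256 CPM in lentiviral SKM, and 420.2, 272, 279, 437 and 379.9 CPM in lentiviral OSKM lines. Rrp12 had 64.0, 48.4, 33.98, 32.8 and 36.8 CPM in retroviral OSKM, 39.3, 40.3, 46.3, 37.4 and 26.1 CPM in lentiviral SKM, and 55.1, 42.9, 35.3, 54.3 and 32.6 CPM in lentiviral OSKM lines. Both were lowest among retroviral lines in line 4, the one with the least Myc, and all groups overlapped. Srm had 119.9, 162, 125, 136 and 81.9 CPM in retroviral OSKM, 88.9, 101.2, 95.5, 105.4 and 134 CPM in lentiviral SKM, and 139.5, 145, 88.8, 93.6 and 128 CPM in lentiviral OSKM lines. Utp20 had 112, 74.0, 90.1, 55.0 and 111 CPM in retroviral OSKM lines. Srm was lowest in retroviral line 5, and Utp20 in line 4. Nop56, with the fourth smallest p in the fit of the lentiviral lines, had 364, 372, 344, 257 and 263 CPM in retroviral OSKM, 178, 217, 291, 265 and 263 CPM in lentiviral SKM, and 263, 234, 196, 279.8 and 204 CPM in lentiviral OSKM lines. It was lowest in the line with the least Myc in all 3 groups.

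Slopes on Mycn were smaller at the median. Mycn in place of Myc as the covariate was an alternative added after the data were seen. There 24 members were above 0, with a median slope of 0.08, against 0.01 and 51.6% above 0 over all genes. The slopes of Ddx21, Nop2 and Wdr74 then lay below 0, at -0.0087, -0.11 and -0.15. With the sum of Myc and Mycn, 30 members were above 0 and the median slope was 0.39. Over all genes 49.3% were above 0 on that sum, with a median of -0.0080. Without lentiviral OSKM line 5 and lentiviral SKM line 1, the lentiviral lines with the most fibroblast marker RNA, 27 members were above 0 on Myc, with a median of 0.20. When retroviral line 1, with 531 CPM of these markers and the most Myc, was left out as well, it was 28 members and a median of 0.21. Leaving out retroviral line 3 in addition again gave 28 members and a median of 0.21. Over all genes, 50.7%, 50.7% and 50.6% were above 0 in these fits. Summed CPM of 12 proliferation genes, all at 10 CPM or more in every line, was 2181 to 4579 in retroviral OSKM, 2895 to 4152 in lentiviral SKM and 2428 to 4090 in lentiviral OSKM lines, and 3 of the 12 were fitted above 0 for retroviral OSKM against lentiviral OSKM. The part of dividing cells or of fibroblast RNA in the members' values was not tested.

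Members also moved with one another inside groups. After centring each group, the median Spearman rho over all pairs of members was 0.30, and 76.8% of pairs were above 0, against a median of 0.01 and 51.6% over pairs of the 8858 protein-coding genes of at least 10 CPM (n = 15 lines). Nop56, a core box C/D protein, followed the mean of the other 33 members most closely, at a rho of 0.90, then Mybbp1a at 0.79 and Bop1 at 0.78. Mrto4 and Wdr12 ran against it at -0.34 and -0.33, and Odc1, Cdk4 and Srm lay at -0.16, -0.08 and 0.04. Cad, the remaining metabolic member, lay at 0.58. Retroviral line 2 held the highest level of 8 members, as did retroviral line 3, the line low in XEN markers, and lentiviral OSKM line 4 that of 7. Lentiviral SKM line 1 held the lowest level of 13 members. That line had 56.8 CPM of Myc and 208 CPM of Mycn, the lowest and the highest of the SKM lines. For the counts of members highest or lowest in a line, the share over all genes was not computed.

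Coding length moved with both results. For retroviral OSKM against lentiviral OSKM, the log2 difference had a Spearman rho of -0.21 with coding length over 8926 protein-coding genes of at least 10 CPM, and of -0.47 over the 34 members. Of the 17 members up to the median coding length of 1677 bases, 15 were above 0, with a median of 0.38, and of the 17 longer ones 12, with a median of 0.18. Among the other genes 57.6% of the shorter ones were above 0, with a median of 0.07, and 41.6% of the longer ones, with a median of -0.07. Slopes on Myc ran the other way, with a rho of 0.17 over 8857 genes and 0.56 over the members: 13 of 17 shorter and 17 of 17 longer members were above 0, against 44.9% and 56.5% of other genes. Within the retroviral lines the rho of these slopes was 0.72 over the members and 0.19 over genes. Within the lentiviral lines it was 0.19 and 0.08. For the retroviral minus the lentiviral slope it was 0.60 and 0.09. For lentiviral SKM against lentiviral OSKM the rho was 0.0021 over genes and -0.46 over the members. The part of length, or of RNA quality, in these values was not tested.

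**Figure D5:**
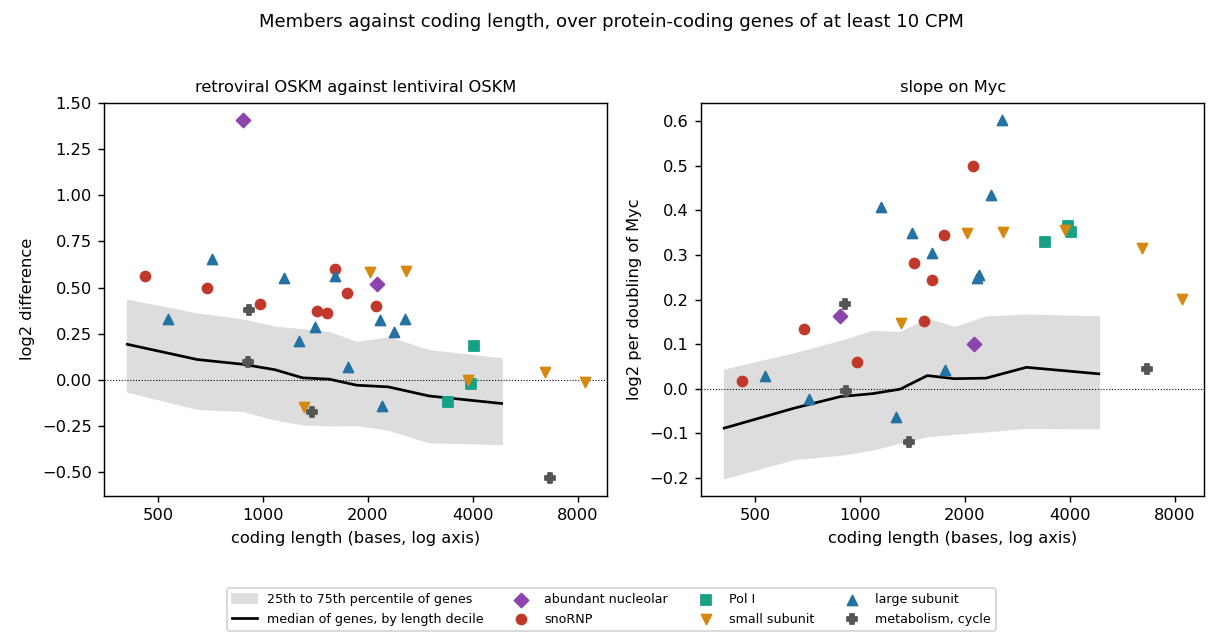
Members (symbols by role) against coding length, on a log axis, over the median (line) and the 25th to 75th percentile (band) of protein-coding genes of at least 10 CPM in 10 length classes. Most members lie above the median of genes of like length in both panels; the line slopes down for retroviral OSKM against lentiviral OSKM and up for the slope on Myc.

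Promoters were read for the E-box CACGTG, the core Myc and Max site, in RefSeq windows of GRCm38.p6 that run from 250 bases before to 50 bases after the start of a gene. The motif is its own reverse complement, so both strands are covered. A window was matched for 28 members, of which 6, 21.4%, held the motif, against 7.15% of all 32851 windows and 8.09% of 27025 genes. These backgrounds take every gene with a window, silent ones included, whereas all members are expressed, so the shares are not of like sets. No window was matched for Npm1, Fbl, Srm, Rrp12, Bop1 and Tcof1. The median slope on Myc was 0.28 for the 6 and 0.25 for the other 22. A match is a description of the letters and not a bound site. Nop2 (chr6:125131633-125131882, plus strand), the member with a match and the highest slope, carries it 60 bases before its start. Cdk4 (chr10:127063285-127063534, plus strand) was picked after its values were seen, since it holds 4 matches and had a slope of -0.01 ± 0.11. The 250 bases before their starts are shown with the motif in capitals.
Nop2: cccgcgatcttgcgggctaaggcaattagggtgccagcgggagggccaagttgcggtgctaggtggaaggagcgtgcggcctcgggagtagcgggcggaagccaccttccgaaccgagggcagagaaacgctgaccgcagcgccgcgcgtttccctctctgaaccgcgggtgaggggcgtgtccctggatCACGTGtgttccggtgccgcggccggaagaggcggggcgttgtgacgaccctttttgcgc
Cdk4: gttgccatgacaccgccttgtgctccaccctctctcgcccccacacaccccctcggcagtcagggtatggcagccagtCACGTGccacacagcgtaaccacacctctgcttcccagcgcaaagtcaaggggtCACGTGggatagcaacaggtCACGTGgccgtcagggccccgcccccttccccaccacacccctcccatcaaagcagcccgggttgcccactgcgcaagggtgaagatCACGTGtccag

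In Mybbp1a, Wdr43 and Utp20, the next members by slope, the match lies just after the start, and each is shown with its flanking bases. Positions count the first transcribed base as base 0. Mybbp1a (chr11:72441357-72441376, plus strand) has it from base 40, Wdr43 (chr17:71616222-71616247, plus strand) from base 17 and Utp20 (chr10:88826765-88826787, minus strand) from base 37. Their slopes were 0.35 ± 0.17, 0.35 ± 0.11 and 0.20 ± 0.19. Pes1, the sixth, has it from base 2 and a slope of 0.04 ± 0.11.
Mybbp1a: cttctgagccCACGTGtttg
Wdr43: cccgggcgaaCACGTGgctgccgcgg
Utp20: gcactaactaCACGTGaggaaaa

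Other genes of the same pathways were read from lists. For retroviral OSKM against lentiviral OSKM, 17 of 20 further polymerase I genes were fitted above 0 (median log2 difference 0.25), 36 of 49 small-subunit genes (0.16), 36 of 47 large-subunit genes (0.23), 10 of 12 snoRNP assembly genes (0.33) and 24 of 35 other Myc targets (0.19), and none passed, where 52.3% of all genes were above 0. Of 11 further polyamine and pyrimidine genes 7 were above 0 (0.08). Of 4 tested host genes of small nucleolar RNAs all were above 0, and Snhg5 rose: it had 39.8, 45.5, 46.9, 42.6 and 42.2 CPM in retroviral OSKM lines, against 25.5, 28.0, 25.4, 22.4 and 27.6 CPM in lentiviral OSKM lines, without overlap, and 17.7 to 63.8 CPM in lentiviral SKM lines (log2 difference from lentiviral OSKM 0.77 ± 0.13, edgeR adjusted p = 0.0478). Against lentiviral SKM lines, 15 of 20, 38 of 49, 38 of 47 and 11 of 12 of the same lists were above 0, and 25 of 35 other Myc targets, 5 of 11 polyamine and pyrimidine genes and 3 of 4 snoRNA hosts, where Snhg5 overlapped (edgeR adjusted p = 0.724). There 1 gene passed, the small-subunit processome factor Utp3, with 98.0, 89.0, 87.9, 96.7 and 106 CPM in retroviral OSKM lines, against 52.3, 60.3, 61.4, 54.4 and 54.0 CPM in lentiviral SKM lines (log2 difference 0.79 ± 0.12, edgeR adjusted p = 0.0244). For lentiviral SKM against lentiviral OSKM, 9 of 20, 13 of 49, 21 of 47 and 5 of 12 were above 0 and none passed. Slopes on Myc were above 0 for 39 of 49 small-subunit genes (median 0.10), 42 of 47 large-subunit genes (0.13), 14 of 20 polymerase I genes (0.04), 7 of 12 snoRNP assembly genes (0.04), 5 of 11 polyamine and pyrimidine genes (-0.0080), 25 of 35 other Myc targets (0.18) and 4 of 4 snoRNA hosts (0.15), where 48.4% of all genes were, and none passed. Of 10 genes that Myc is known to repress, 5 had slopes above 0 and 5 below.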

How the data were processed

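The authors deposited whole-number read counts per Ensembl gene in 1 table for the retroviral and 1 for the lentiviral lines. HISAT2 2.1.0 with mm10, HTSeq 0.11.2, SAMtools 1.9, Trimmomatic 0.39 and FastQC 0.11.7 are named per the submitters' processing notes, and a stranded mRNA kit per the labels' protocols. Annotation and strand setting of the counting: not given in the sources used. The 5 HTSeq summary rows were left out; genes took 68.8% to 77.0% of a library's entries. Symbols and coding lengths came from GENCODE M21 (same assembly as mm10).

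Groups came from the labels, 5 libraries each. Tests used edgeR 4.0.16 in R 4.3.3 (TMM scaling, filterByExpr with a minimum count of 10, quasi-likelihood test, Benjamini-Hochberg adjustment over all genes tested, threshold 0.05); all 34 members passed the filter in every fit. SE is the log2 estimate over the square root of F. CPM are TMM-scaled. The Myc covariate was log2(CPM + 0.5). DESeq2 1.42.0, limma 3.58.1 voom, other scalings, filters and fits, and each library left out were alternatives; Mycn in place of or added to Myc, leaving out the lines rich in fibroblast or poor in XEN markers and protein-coding genes only were added after the data were seen. Copies were searched with BLAST+ 2.17.0. Fits were tested on simulated counts. Members and lists were chosen with earlier results of these data known. Values per line are given for Myc and the 4 members of smallest p per comparison, slope and interaction fit; those of Odc1, Fbl, Gar1 and Nop56, and of Cad in retroviral lines, were chosen after they were seen, and Snhg5 and Utp3 are the list genes that passed. Of 250 list entries, 247 were matched.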

Additional observations from a re-analysis of the deposited data

Results flagged for a closer look

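In 11 of 111 groups of 5 values (the 34 members, Myc, Mycn and the members' mean level in each group of lines), the highest or lowest line was separated from the nearest of the others by a larger part of the group's range than Dixon's 95% critical value. Chance would flag about 1 in 20 groups if values were normally distributed and groups independent. Members moved with one another, and the rate over all genes was not computed, so 11 of 111 is not read as an excess.

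Retroviral OSKM line 3 was high in Npm1, at 3949 CPM against 1619 to 2213 CPM in the other 4, and in Fbl, at 256 CPM against 155 to 168 CPM. The summed XEN markers of that line were at 1840 CPM, against 3326 to 4947 CPM in the other retroviral lines. Retroviral line 2 was high in Ppan, a large-subunit assembly factor, at 202 CPM against 92.8 to 97.3 CPM, and in Gar1, at 91.8 CPM against 49.9 to 61.6 CPM. Retroviral line 1 was high in Bysl, at 53.3 CPM against 39.3 to 43.3 CPM, and retroviral line 4 low in Wdr43, at 128 CPM against 178 to 189.5 CPM. Among lentiviral SKM lines, line 4 was high in Ddx21, at 252 CPM against 174 to 194 CPM. In lentiviral OSKM line 4, Nop14 had 116 CPM against 55.1 to 68.8 CPM, Dkc1 had 75.6 CPM against 43.3 to 49.4 CPM, and Mycn had 313 CPM against 128 to 181 CPM. In lentiviral OSKM line 3, Rrp1b, a factor of large-subunit maturation, had 25.3 CPM against 45.2 to 53.0 CPM.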

How the results depend on the processing

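For retroviral OSKM against lentiviral OSKM, members called were 0 in edgeR and 3 with DESeq2, 1 with limma voom, 1 with all 15 libraries in the fit, 1 at an adjusted p of 0.1, and 0 to 2 when single libraries were left out. At 0.1 the genes called of all tested were not counted, so that 1 member is not read as an excess. Against lentiviral SKM they were 0 in edgeR, 3 with DESeq2, 2 with all 15 libraries, and 0 to 1 without single libraries. For the slope on Myc, DESeq2 called 1. Members above 0 ranged from 25 to 29, 29 to 32 and 24 to 32, and no alternative called a member for lentiviral SKM against lentiviral OSKM. Genes called of all tested for retroviral OSKM against lentiviral OSKM were 39 in edgeR, 623 with DESeq2, 63 with limma voom, 155 with all libraries, 24 without the filter, 3 among protein-coding genes only and 15 to 101 without single libraries; against lentiviral SKM they were 43, 748, 44, 145, 22, 4 and 13 to 62. DESeq2 also called 44 genes for lentiviral SKM against lentiviral OSKM and 22 for the slope on Myc, where edgeR called 0.

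Deviations of same-numbered lines had correlations of -0.18 to 0.29, and differently numbered lines were not compared. Whether the numbers pair any lines is therefore not settled, and the main fits used no block. With the replicate number as a block, 0 members were called in every comparison; genes called were 3 for retroviral OSKM against lentiviral OSKM and 5 against lentiviral SKM, and the median slope on Myc was 0.29.

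Correlation of the members' mean with Myc was 0.568 (rank 0.455) in lentiviral lines, 0.730 (0.596) after centring and 0.675 with the median over members in place of the mean, and 0.792 to 0.878 without single lines. That median put the groups at 6.74 (retroviral OSKM), 6.53 (lentiviral SKM) and 6.55 (lentiviral OSKM). Of 404 single-gene values under alternatives, 385 kept direction and side, 15 passed only there and 4 turned sign: Ddx21 (-0.0087), Nop2 (-0.11) and Wdr74 (-0.15) with Mycn in place of Myc, and the slope of Srm, retroviral minus lentiviral, at -0.36 over all lines, -0.51 to 0.20 without single lines and 0.20 without retroviral line 4. The cause was not tested. Depth limits little here: intervals reflect the spread between 5 lines. Entries not uniquely aligned were 4.93% to 7.35% of a library in retroviral and 3.95% to 4.97% in lentiviral lines. Entries ambiguous between genes were 3.77% to 6.49% and 4.28% to 4.94%. Retroviral line 3, the line with the highest Npm1, had the most of both kinds. The part of such entries in the members' values was not tested. Cdk4, which overlaps Tspan31, and members with copies carry uncertain counts. So does Bysl, with 9.4% of its exon bases over Ccnd3 on the other strand (40776 counts over all lines for Bysl, 256044 for Ccnd3). The retroviral-only correlation was not run, although slopes were fitted on the same 5 lines.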
